A study of Homo sapiens with 16 samples.

Results

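The genes described here encode the proteins of the human mitochondrial ribosome. They are the 78 protein-coding genes of the deposited count table whose symbol starts with MRPL or MRPS and a digit, of 58735 genes in all: 49 carry a large-subunit name (MRPL) and 29 a small-subunit name (MRPS). All 78 passed the filter on low counts and were among the 17647 genes tested. The RNA, selected by poly(A), came from MDA-MB-231 and SUM159, wild-type human cell lines of triple-negative breast cancer. The latter is SUM159PT in the titles. Each line received either DMSO alone, the solvent, or YES1i at 8 uM for 48 h. The series design speaks of transfected cells, whereas the protocol and sample labels describe treatment, and the groups here follow the labels. YES1i (CH6953755) is a compound that inhibits YES1, a kinase of the Src family. Each of the 4 groups held 4 libraries, which the series design calls technical replicates, so the p-values measure only the spread between these libraries. MDA-MB-231 was kept in RPMI and SUM159 in Ham's F12, so that line and medium cannot be told apart. The comparisons ask how each mitoribosomal transcript differs with the inhibitor in each line, whether that change differs between the lines, and how the lines differ with DMSO.

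The mitochondrial ribosome is a separate machine from the cytosolic one and makes only the hydrophobic core subunits of the respiratory chain and the ATP synthase that mitochondrial DNA encodes. Its 12S and 16S rRNAs, MT-RNR1 and MT-RNR2, are transcribed from mitochondrial DNA, whereas every one of its proteins is encoded in the nucleus, translated in the cytosol and imported. The small subunit reads the mRNA and the large subunit holds the peptidyl transferase centre and the exit tunnel. Many of the proteins descend from bacterial ribosomal proteins and others are specific to mitochondria. Names and places differ for a few genes. The products of MRPS30 and MRPS18A sit in the large subunit, and that of MRPS36 is now known as a component of the 2-oxoglutarate dehydrogenase complex, so that by place 51 genes belonged to the large and 26 to the small subunit.

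The libraries held 15876171 to 36261542 counts, and levels are given as counts scaled to a library of 1000000 (CPM) with TMM factors. The chi-square between replicates, divided by its degrees of freedom, was 2.38 to 24.4 and highest in pairs that held SUM159 DMSO replicate 1 or SUM159 YES1i replicate 2, and no pair agreed within sampling noise. Of 22 cell type and receptor markers 17 were tested. KRT8 and KRT18 were present in both lines, whereas KRT19, EPCAM and CDH1 averaged at most 0.118 CPM in SUM159. Among the untested were PGR, PTPRC, CD3E and CDH5, and ESR1 averaged at most 0.608 CPM in any group. Of the 17 tested markers, 6 rose and 4 fell with YES1i in MDA-MB-231 and 7 rose and 2 fell in SUM159. Beside this, 26.8% of all tested genes rose and 22.1% fell in MDA-MB-231, and 25.1% rose and 26.5% fell in SUM159. The keratins KRT8 and KRT18 fell by 0.54 and 0.56 in MDA-MB-231 and by 0.18 and 0.57 in SUM159, and the matrix gene FN1 rose by 2.09 and 0.35. Other markers of these kinds went the other way in MDA-MB-231. By group means, KRT19 went from 394 to 455 CPM, VIM from 827 to 750 CPM and CDH2 from 1.26 to 0.826 CPM there. In SUM159, VIM went from 1956 to 2445 CPM, and EPCAM was called higher at very low levels, from 0.0161 to 0.118 CPM. The summed level of 5 leukocyte markers was 9.98 to 11.8 CPM with DMSO and 12.1 to 14.5 CPM with YES1i in MDA-MB-231, mostly CSF1R, and 0.822 to 1.38 and 2.55 to 2.80 CPM in SUM159, with CD14 higher. That of 6 endothelial and fibroblast markers was 26.5 to 32.6 and 24.7 to 27.9 CPM in MDA-MB-231, where LUM, PECAM1 and VWF rose and PDGFRB fell, and 40.5 to 44.8 and 65.3 to 70.6 CPM in SUM159, where DCN, PDGFRB and VWF rose. The part of these shifts in the results was not tested.

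In MDA-MB-231, most mitoribosomal transcripts were lower with YES1i. Of the 78, 42 fell and 4 rose (edgeR quasi-likelihood test, Benjamini-Hochberg adjusted p under 0.05 over all tested genes), where 22.1% of all tested genes fell and 26.8% rose. The median log2 fold change over the 78 was -0.22, beside 0.03 over all tested genes, and 61 of the 78 values were negative. In 42 genes all 4 YES1i libraries lay under all 4 DMSO libraries, as in 21.8% of tested genes, and in 4 they lay above, as in 25.5%. The shift was broad and shallow, as no member fell by more than 0.68 on the log2 scale. RLE and upper quartile scaling and DESeq2 gave 41 or 42 lower. The count of higher genes rests on few libraries, and was 2 without MDA-MB-231 DMSO replicate 1. The shares of all tested genes above belong to the TMM fit of all libraries, not to these alternatives.

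In SUM159, 51 of the 78 genes fell and 3 rose with YES1i, where 26.5% of all tested genes fell and 25.1% rose. The median log2 fold change was -0.31, beside 0.02 over all tested genes, and 67 values were negative. The groups did not overlap, with YES1i lower, in 45 genes (22.7% of tested genes) and, with YES1i higher, in 3 (20.5%). Under upper quartile scaling, which moved the median of all tested genes in SUM159 to 0.14, 40 members fell and 6 rose. The count of higher genes was 5 without SUM159 DMSO replicate 1, and without both SUM159 libraries that stand apart 49 members fell and 6 rose. The shares of all tested genes above belong to the TMM fit of all libraries, not to these alternatives.

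Many members fell in both lines. In both lines 33 of the 78 fell, as did 14.0% of all tested genes, and 0 rose in both, as did 12.4%. A further 8 fell in MDA-MB-231 without passing the test in SUM159 and 17 the other way round. The genes called in opposite directions were MRPL41, which rose in MDA-MB-231 and fell in SUM159, and MRPS33, which did the reverse, 2 of 78 beside 5.17% of tested genes. In 13 genes neither line passed the test. Across the 78 genes the changes in the lines had a Pearson's r of 0.43 and a Spearman's rho of 0.49. These describe genes measured in the same libraries, not independent replicates. The plot of both changes shows this crowding in the lower left quadrant.

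**Figure D1:**
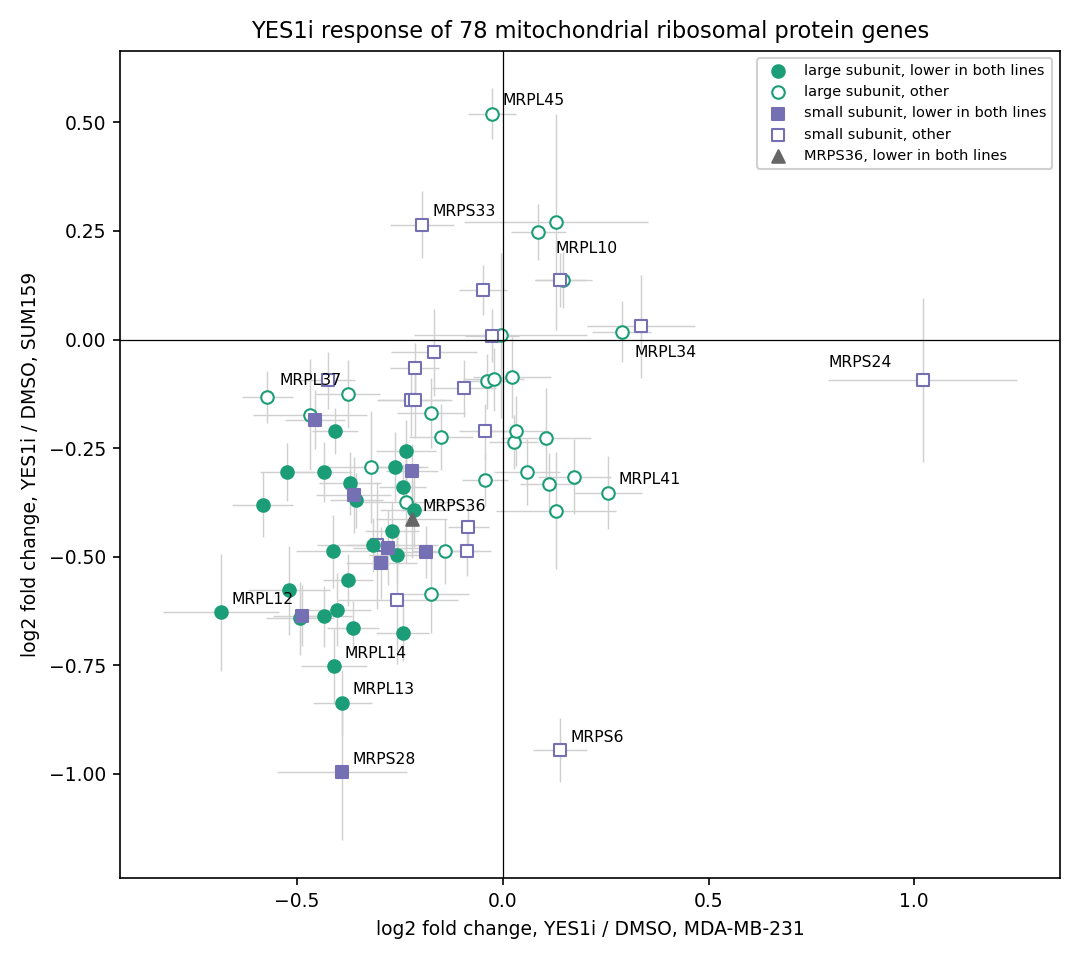
Log2 fold change (YES1i over DMSO) of each of the 78 mitochondrial ribosomal protein genes in MDA-MB-231 (horizontal axis) and SUM159 (vertical axis), with grey bars for the standard error of the fit; filled symbols mark the 33 genes called lower in both lines. Most points lie left of and below 0, MRPS24 stands far right and MRPL45 at the top.

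Each library showed the shift on its own. The summed level of the 78 genes was 3578 ± 50.1 CPM with DMSO and 3109 ± 154 CPM with YES1i in MDA-MB-231 (mean ± SD, n = 4 in each group), and 3865 ± 47.4 and 3179 ± 49.4 CPM in SUM159. In both lines every YES1i library lay under every DMSO library. Among the MDA-MB-231 YES1i libraries, replicate 1 was lowest, with a median of -0.34 on the log2 scale against the DMSO mean, and the others lay between -0.19 and -0.15. Without that library 35 members fell in MDA-MB-231 in place of 42. These are shares of a library's counts in bulk RNA, in which fewer cells of a kind and less of the transcript per cell cannot be told apart.

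**Figure D2:**
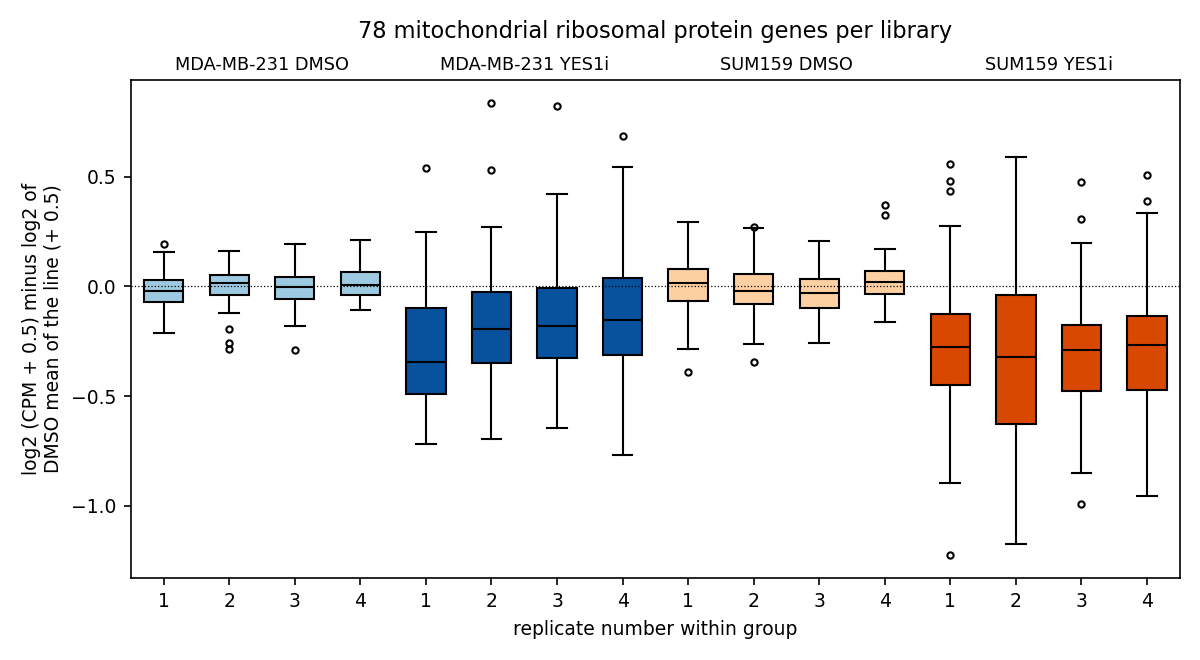
Box plots, 1 per library, of log2 (CPM + 0.5) of the 78 genes minus log2 of the DMSO mean of the same line (+ 0.5); boxes span the quartiles, the line is the median, whiskers reach 1.5 times the box and circles lie beyond. The 8 YES1i medians all lie under the 8 DMSO medians, which are close to 0 because the DMSO libraries define the reference.

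Both subunits took part. Beside the counts that follow, 22.1% of all tested genes fell and 26.8% rose in MDA-MB-231. In SUM159, 26.5% of all tested genes fell and 25.1% rose. By place, 28 of 51 large-subunit genes fell and 2 rose in MDA-MB-231, at a median of -0.24 on the log2 scale, and 36 fell and 2 rose in SUM159, with a median of -0.32. Of 26 small-subunit genes, 13 fell and 2 rose in MDA-MB-231 (median -0.21), and 14 fell and 1 rose in SUM159 (median -0.20). The ratio of summed large to summed small CPM in MDA-MB-231 went from 1.86 ± 0.0154 to 1.77 ± 0.0196 with YES1i. For SUM159 these ratios were 1.77 ± 0.0123 and 1.67 ± 0.0288. The libraries of the treatments did not overlap in either line. After division by gene length the same ratio still separated the treatments in MDA-MB-231, at 2.31 ± 0.0304 and 2.21 ± 0.0225, whereas in SUM159 they overlapped, at 2.06 ± 0.0532 and 2.02 ± 0.0514. Among the 48 genes with a bacterial homologue 28 fell in MDA-MB-231 and 34 in SUM159, with medians of -0.25 and -0.35. Among the 29 without one, 13 and 16 fell, with medians of -0.19 and -0.22. No difference between these classes was tested. MRPS36, outside the ribosome, also fell in both lines, by 0.22 and 0.41 on the log2 scale. Its call in MDA-MB-231 (adjusted p = 0.0352) ended without any 1 of DMSO replicates 1 and 2 and the 4 YES1i replicates of that line.

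The stalk of the large subunit, which recruits translation factors, did not move together. MRPL12 (chromosome 17, 81703357 to 81707526, plus strand), its flexible arm, had the largest fall of all 78 in MDA-MB-231. Its level was 31.5, 34.2, 31.6 and 35.9 CPM in the 4 DMSO libraries and 21.8, 20.6, 21.1 and 19.4 CPM in the 4 YES1i libraries. In SUM159 it was 33.6, 53.4, 47.2 and 42.5 CPM with DMSO and 34.6, 20.9, 28.9 and 29.6 CPM with YES1i. The groups were apart in MDA-MB-231 and overlapped in SUM159, where DMSO replicate 1 was low and YES1i replicate 2 lowest. The log2 fold change was -0.68 ± 0.14 (SE), adjusted p = 0.000570 in MDA-MB-231, and -0.63 ± 0.14 (SE), adjusted p = 0.000863 in SUM159. MRPL11 (chromosome 11, 66435075 to 66466738, minus strand), at the base of the stalk, had 64.6, 69.0, 62.0 and 67.3 CPM with DMSO and 46.5, 45.6, 45.2 and 45.3 CPM with YES1i in MDA-MB-231. SUM159 had 47.1, 40.1, 47.7 and 46.7 CPM with DMSO and 39.3, 32.3, 38.1 and 37.7 CPM with YES1i. It was lower with YES1i in both lines without overlap, by 0.53 and 0.30 on the log2 scale (adjusted p = 9.49e-08 and 0.000368). MRPL10, which anchors MRPL12, went the other way in SUM159, with 54.3, 52.2, 50.5 and 54.5 CPM with DMSO and 64.0, 62.4, 60.7 and 64.0 CPM with YES1i (log2 fold change 0.25 ± 0.06 (SE), adjusted p = 0.00198). In MDA-MB-231 its groups overlapped, at 39.4 ± 4.45 and 41.8 ± 1.53 CPM (adjusted p = 0.302). Without MDA-MB-231 DMSO replicate 4 it passed the test there as higher (0.16, adjusted p = 0.0397).

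MRPL16 (chromosome 11, 59806135 to 59810872, minus strand), which lies near the bound tRNAs, had 52.8, 51.3, 48.6 and 54.0 CPM with DMSO and 31.2, 35.2, 36.1 and 35.4 CPM with YES1i in MDA-MB-231. In SUM159 the values were 46.9, 38.2, 39.4 and 45.5 CPM and 31.5, 37.1, 31.4 and 30.8 CPM. All YES1i libraries were the lower ones in both lines, with SUM159 YES1i replicate 2 just under the lowest DMSO library. The changes were -0.58 ± 0.07 and -0.38 ± 0.08 (SE). MRPL3, which reaches towards the same centre, fell by 0.41 and 0.21, the latter not under upper quartile scaling (adjusted p = 0.129), whereas MRPL2, whose bacterial counterpart supports peptide bond formation, passed the test in neither line (-0.04 and -0.10). Of the proteins that line the tunnel exit, MRPL22 fell by 0.52 in MDA-MB-231 and 0.58 in SUM159 and MRPL47 by 0.44 and 0.64. MRPL47 shares 124 exon bases with ACTL6A on the opposite strand, whose total count was 283% of that of MRPL47. ACTL6A fell by 0.76 in MDA-MB-231 and 0.85 in SUM159, and its part in the MRPL47 values was not tested. MRPL39, a mitochondria-specific protein of the large subunit, fell by 0.49 and 0.64.

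MRPL45 (chromosome 17, 38297023 to 38323218, plus strand), which sits at the tunnel exit and ties the ribosome to the inner membrane, had the largest rise in SUM159. It had 38.3, 38.7, 36.1 and 37.8 CPM with DMSO and 52.8, 57.0, 52.6 and 53.9 CPM with YES1i there (log2 fold change 0.52 ± 0.06 (SE), adjusted p = 1.50e-08). In MDA-MB-231 the values were 49.5, 50.0, 52.4 and 48.4 CPM and 47.0, 49.3, 47.2 and 53.1 CPM. These overlapped (-0.03, adjusted p = 0.756), and the difference between the lines passed the test (-0.55 ± 0.08, adjusted p = 6.04e-06). Its named pseudogenes held 5.72% of its own total count. MRPL44, which carries a ribonuclease III-like fold and is mutated in a form of cardiomyopathy, fell by 0.22 in SUM159 (adjusted p = 0.0150) and had a value of -0.15 in MDA-MB-231 (adjusted p = 0.110). The SUM159 call was not kept under RLE scaling (adjusted p = 0.0570) or upper quartile scaling (adjusted p = 0.260). It also ended without SUM159 DMSO replicate 1 (0.0781) and without SUM159 YES1i replicate 1 (0.0851). In MDA-MB-231 MRPL44 passed, as lower, in the fit of that line alone (0.0160).

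The largest falls in SUM159 were in genes whose MDA-MB-231 change was smaller. MRPL13, MRPL14 and MRPS28 fell in both lines. MRPL14 (chromosome 6, 44113454 to 44127457, minus strand), a protein of the face between the subunits, had 54.9, 65.6, 71.3 and 55.2 CPM with DMSO and 42.1, 33.9, 34.0 and 36.6 CPM with YES1i in SUM159. In MDA-MB-231 it had 155, 166, 167 and 163 CPM and 108, 119, 135 and 127 CPM. The groups were apart in both lines, and the fall was 0.41 in MDA-MB-231 and 0.75 in SUM159. MRPL13, a large-subunit protein of bacterial descent, fell by 0.39 and 0.84. MRPS28, a small-subunit protein with low counts, fell by 0.39 (adjusted p = 0.0420) and 1.00 (adjusted p = 4.52e-06), and its MDA-MB-231 call ended without any 1 of DMSO replicates 3 and 4 and the 4 YES1i replicates of that line. MRPL35 fell by 0.36 and 0.66 and MRPL28 by 0.24 and 0.68, both of them large-subunit proteins with bacterial homologues.

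MRPS6 (chromosome 21, 34073224 to 34143034, plus strand), a protein of the small subunit's platform, differed most clearly between the lines. In SUM159 its level was 29.8, 26.6, 26.0 and 29.7 CPM with DMSO and 14.8, 15.4, 13.8 and 14.2 CPM with YES1i. In MDA-MB-231 it was 54.6, 52.7, 49.1 and 48.5 CPM and 51.5, 59.6, 57.6 and 56.8 CPM. The SUM159 groups were far apart and the MDA-MB-231 groups overlapped. The change was -0.95 ± 0.07 (SE), adjusted p = 1.07e-11 in SUM159, and 0.14 in MDA-MB-231 (adjusted p = 0.0828), a difference of 1.08 ± 0.10 (SE, adjusted p = 8.51e-10). MRPS6 shares 273 exon bases on its own strand with SLC5A3, a myo-inositol transporter gene whose total count was 333% of that of MRPS6. SLC5A3 changed by -0.51 in SUM159 and 0.44 in MDA-MB-231. Its part in the MRPS6 values was not tested.

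Among small-subunit genes, MRPS7 fell in both lines. MRPS7 (chromosome 17, 75261674 to 75266373, plus strand), whose bacterial counterpart starts the assembly of the head of the subunit, had 70.2, 63.7, 61.4 and 65.2 CPM with DMSO and 44.2, 45.2, 48.8 and 47.4 CPM with YES1i in MDA-MB-231. The SUM159 libraries had 54.7, 64.1, 56.3 and 55.7 CPM and 40.5, 32.1, 39.1 and 36.8 CPM. It was lower in every YES1i library, with changes of -0.49 ± 0.07 and -0.64 ± 0.07 (SE). MRPS9, whose bacterial counterpart lies in the head, fell by 0.46 in MDA-MB-231 and 0.18 in SUM159. Its SUM159 call was not kept under RLE or upper quartile scaling (adjusted p = 0.0961 and 0.423), by DESeq2 (0.0702), without the filter (0.109) or without DMSO or YES1i replicate 3 of that line. MRPS2, at the join of head and body, fell by 0.43 in MDA-MB-231 and had a change of -0.09 in SUM159 (adjusted p = 0.241).

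MRPS18A, MRPS18B and MRPS18C are homologues of a single bacterial protein. They now occupy 3 different places, MRPS18A in the large and the other pair in the small subunit. In MDA-MB-231 their log2 fold changes were 0.11, 0.14 and -0.30, with adjusted p = 0.453, 0.0618 and 0.0913. For SUM159 these were -0.23, 0.14 and -0.47, with adjusted p = 0.0984, 0.0703 and 0.00965. MRPS18A passed there, as lower, without SUM159 DMSO replicate 2 (0.0481) or SUM159 YES1i replicate 2 (0.0227). MRPS18C passed the test in SUM159, though not in a fit of that line alone (adjusted p = 0.0647). In MDA-MB-231 it passed in that line's own fit (0.000784), without the filter (0.00926) and without SUM159 YES1i replicate 2 (0.0151). MRPS18C shares 40.2% of its exon bases with ABRAXAS1 on the opposite strand, whose total count was 143% of that of MRPS18C. ABRAXAS1 rose by 0.58 in MDA-MB-231 and 0.67 in SUM159, and its part in the MRPS18C values was not tested. MRPS18B had 76.4, 77.9, 74.2 and 77.5 CPM with DMSO and 77.0, 80.9, 87.4 and 91.4 CPM with YES1i in MDA-MB-231. Its SUM159 values were 52.9, 57.8, 52.8 and 55.3 CPM and 64.0, 53.9, 58.5 and 63.8 CPM. MRPS30 had 39.9, 39.8, 42.6 and 43.2 CPM and 45.1, 49.3, 44.1 and 45.0 CPM in MDA-MB-231. SUM159 had 112, 95.5, 93.4 and 102 CPM and 99.8, 123, 107 and 115 CPM. MRPS18B and MRPS30 had positive values in both lines that did not pass the test (MRPS30 0.15 and 0.14, adjusted p = 0.0781 and 0.0745). Both passed, as higher, in SUM159 under RLE scaling (adjusted p = 0.0137 and 0.0171), and under upper quartile scaling and DESeq2. Without both SUM159 libraries that stand apart they passed in MDA-MB-231 (adjusted p = 0.0241 and 0.0280) and in SUM159 (0.0241 and 0.0437). With 1 library left out, MRPS18B passed in SUM159 without MDA-MB-231 YES1i replicate 1, SUM159 DMSO replicate 2 or SUM159 YES1i replicate 2, and MRPS30 without SUM159 DMSO replicate 1 or YES1i replicate 1. MRPS18B passed in MDA-MB-231 under upper quartile scaling (adjusted p = 0.0368) and without MDA-MB-231 YES1i replicate 1 (0.0201), SUM159 YES1i replicate 1 (0.0495) or SUM159 YES1i replicate 2 (0.0345).

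**Figure D3:**
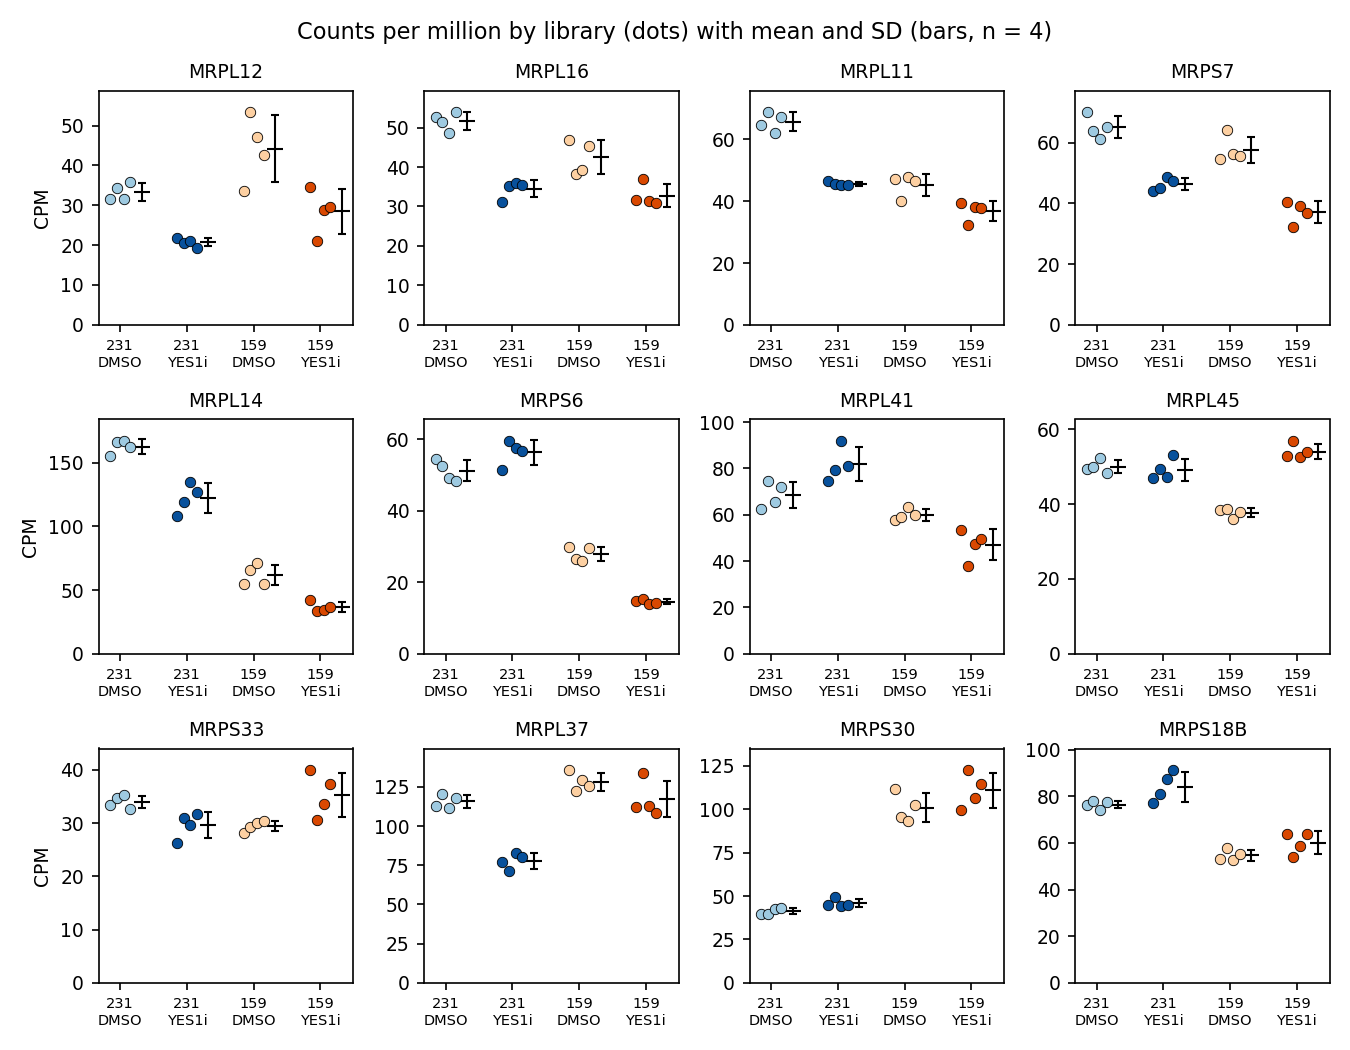
CPM of 12 mitochondrial ribosomal protein genes in each library (dots, 4 per group; tick labels give the digits in the name of the line) with the mean and SD of the group (bar beside the dots); the vertical axes start at 0 and differ between panels. MRPL12, MRPL16, MRPL11, MRPS7 and MRPL14 are lower with YES1i in both lines, MRPS6 in SUM159, and MRPL45 is higher in SUM159; the 12 genes were chosen after their values were seen.

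The genes that rose in MDA-MB-231 were MRPL34, MRPL41, MRPS17 and MRPS24. MRPL41, a mitochondria-specific large-subunit protein, had 62.4, 74.7, 65.4 and 72.0 CPM with DMSO and 74.7, 79.5, 91.9 and 81.2 CPM with YES1i in MDA-MB-231, 4 libraries just above the others. The SUM159 libraries had 57.5, 59.2, 63.5 and 59.9 CPM and 53.4, 37.7, 47.6 and 49.6 CPM, with YES1i lower in each. The changes were 0.26 (adjusted p = 0.0113) and -0.35 (adjusted p = 0.000996), a difference of 0.61 ± 0.12 (SE). The MDA-MB-231 call ended without DMSO replicate 1 (adjusted p = 0.0514) or YES1i replicate 3 (0.0599) of that line. MRPL34, a small protein of bacterial descent, had 29.3, 30.1, 30.2 and 30.3 CPM with DMSO and 35.7, 35.0, 39.0 and 36.7 CPM with YES1i (log2 fold change 0.29 ± 0.07 (SE), adjusted p = 0.00119). Its exons overlap those of ABHD8 on the opposite strand, which rose by 0.41 in MDA-MB-231 and 0.44 in SUM159, where MRPL34 had a value of 0.02 (adjusted p = 0.857).

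MRPS24, the counterpart of a bacterial protein at the mRNA entry, rose from 1.07, 0.926, 0.618 and 0.866 CPM with DMSO to 1.49, 1.95, 1.92 and 1.70 CPM with YES1i in MDA-MB-231 (log2 fold change 1.02 ± 0.23 (SE), adjusted p = 0.000450). Its SUM159 values were 2.98, 2.78, 2.34 and 2.53 CPM and 2.62, 2.74, 2.21 and 2.42 CPM, which overlapped. It was among the lowest of the 78 genes, and 23.2% of its exon bases are shared with a read-through gene on the same strand. MRPS17 had 4.07, 4.09, 4.94 and 4.10 CPM with DMSO and 4.81, 5.29, 5.09 and 6.50 CPM with YES1i in MDA-MB-231, which overlapped. Its call (adjusted p = 0.0351) was not kept without the filter (0.146), in the fit of that line alone (0.0777) or without any 1 of DMSO replicates 1, 2 and 4 and YES1i replicate 4 of that line. MRPS17 shares 112 exon bases on its own strand with NIPSNAP2, whose total count was 839% of that of MRPS17 and which rose by 0.45 in MDA-MB-231. Its part in the MRPS17 values was not tested.

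MRPS33, a mitochondria-specific protein of the small subunit, had 33.4, 34.6, 35.2 and 32.5 CPM with DMSO and 26.2, 30.9, 29.6 and 31.8 CPM with YES1i in MDA-MB-231. SUM159 had 28.1, 29.3, 30.0 and 30.4 CPM and 40.0, 30.6, 33.5 and 37.3 CPM. The MDA-MB-231 libraries were lower with YES1i and the SUM159 libraries higher, without overlap in either line. The changes were -0.20 (adjusted p = 0.0358) and 0.26 (adjusted p = 0.00490), a difference of -0.46 ± 0.11 (adjusted p = 0.00149). The MDA-MB-231 call ended without any 1 of DMSO replicates 1 to 3 and YES1i replicates 1 and 3 of that line (without YES1i replicate 1, adjusted p = 0.152).

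The test of the difference between the lines called 24 of the 78 genes, beside 31.1% of tested genes. The change was higher in MDA-MB-231 than in SUM159 in 19, as in 19.1% of tested genes, and lower in 5, as in 12.1%. This split depended on the scaling: RLE gave 15 and 9, DESeq2 16 and 9, and upper quartile scaling 9 and 12. The shares of tested genes above are those with TMM. Of the 8 largest positive differences, those of MRPL13, MRPL15, MRPL28, MRPL36, MRPL41, MRPS6 and MRPS24 passed the test under each of those scalings. The negative differences, of MRPL37, MRPL45, MRPS2, MRPS9 and MRPS33, also passed each time, though that of MRPS9 ended without the filter (adjusted p = 0.0934) and without any 1 of 7 single libraries. That of MRPS28 passed only with TMM among them (adjusted p = 0.0393, then 0.0622, 0.0561 and 0.0980), and also ended without the filter (0.0721) and without any 1 of 10 of the 16 single libraries. MRPL37, a mitochondria-specific large-subunit protein, had 113, 120, 112 and 118 CPM with DMSO and 77.1, 71.2, 82.8 and 80.0 CPM with YES1i in MDA-MB-231. The SUM159 libraries had 136, 123, 129 and 125 CPM and 112, 134, 113 and 109 CPM. The first pair of groups was far apart and the second overlapped through YES1i replicate 2, with changes of -0.57 and -0.13. MRPL36, a small zinc-binding protein, had log2 fold changes of 0.17 in MDA-MB-231 and -0.32 in SUM159 (not called there under upper quartile scaling, adjusted p = 0.0580), and MRPL15, a core protein of the large subunit, by 0.11 and -0.33.

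The 16S rRNA moved against the protein transcripts. MT-RNR2 rose with YES1i in both lines, from 5447, 5281, 4858 and 4995 to 11196, 12406, 11850 and 12580 CPM in the MDA-MB-231 libraries and from 7112, 6151, 5910 and 7276 to 12138, 13551, 12470 and 11992 CPM in the SUM159 libraries. The log2 fold changes were 1.22 and 0.92. MT-RNR1 rose in SUM159 (0.53, adjusted p = 1.55e-05) and had a change of 0.11 in MDA-MB-231 (adjusted p = 0.270). In MDA-MB-231 the ratio of both rRNAs to the 78 protein transcripts was 1.73 ± 0.0887 with DMSO against 4.23 ± 0.133 with YES1i. The SUM159 ratios were 1.94 ± 0.178 and 4.35 ± 0.327, and no libraries overlapped between treatments in either line. The libraries were made by poly(A) selection, so the level of an rRNA here is that of the molecules so captured.

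**Figure D4:**
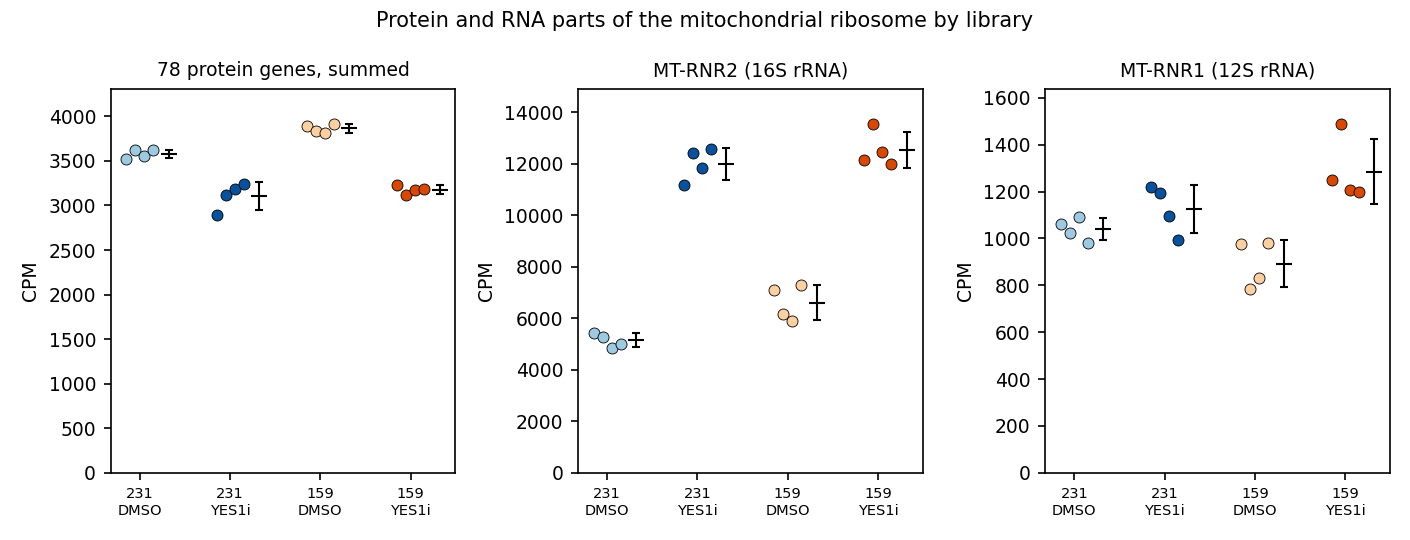
CPM of the 78 mitochondrial ribosomal protein genes summed, of MT-RNR2 and of MT-RNR1 in each library (dots, 4 per group; tick labels give the digits in the name of the line), with the mean and SD of the group beside them. The protein genes are lower and MT-RNR2 higher with YES1i in both lines, and the MT-RNR1 groups overlap in MDA-MB-231.

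A list of further ribosomal proteins held DAP3, PTCD3, CHCHD1, AURKAIP1 and GADD45GIP1, together with MRPL58, which is also 1 of the 78. Of the 6, 4 fell in each line, where 22.1% of all tested genes fell in MDA-MB-231 and 26.5% in SUM159. AURKAIP1 of the small subunit fell by 0.52 and 0.57, and GADD45GIP1, at the tunnel exit, by 0.47 and 0.46. PTCD3, an RNA-binding pentatricopeptide repeat protein, fell by 0.18 and 0.23. DAP3 fell in MDA-MB-231 (-0.31) and had a value of -0.10 in SUM159 (adjusted p = 0.110), and CHCHD1 fell in SUM159 (-0.61) and had -0.18 in MDA-MB-231 (adjusted p = 0.0508). MRPL58, the peptidyl-tRNA hydrolase that rescues stalled ribosomes, passed the test in neither line (-0.17 and -0.17).

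The machinery that builds and feeds the ribosome gave the following counts. Of all tested genes, 22.1% fell and 26.8% rose in MDA-MB-231, and 26.5% fell and 25.1% rose in SUM159. Of 29 assembly factors, 12 fell and 5 rose in MDA-MB-231 and 19 fell and 4 rose in SUM159. C1QBP fell by 0.77 and 0.59. MPV17L2 fell by 1.07 in SUM159 and by 0.30 in MDA-MB-231 (adjusted p = 0.0402). The GTPase NOA1 rose by 0.63 in SUM159 and by 0.17 in MDA-MB-231 (adjusted p = 0.0368). Both of these MDA-MB-231 calls ended with a replicate block (0.0578 and 0.0504) and without some single libraries, that of NOA1 also without the filter (0.201). TFB1M, the dimethyltransferase of the 12S rRNA, rose in MDA-MB-231 (0.33) and fell in SUM159 (-0.53), the former not without the filter (adjusted p = 0.0598), DMSO replicate 2 or YES1i replicate 1 of MDA-MB-231. Of 17 genes that copy, transcribe and process mitochondrial DNA and its RNA, 11 fell and 0 rose in MDA-MB-231, and 15 fell and 1 rose in SUM159. The exoribonuclease PNPT1 fell by 0.68 and 0.68, TFAM, which packages mitochondrial DNA, by 0.59 and 0.62, and POLG2 rose in SUM159 (0.25), though not without DMSO replicate 1 or 4 or YES1i replicate 4 of that line. Of 20 mitochondrial aminoacyl-tRNA synthetases and amidotransferase subunits, 9 fell and 1 rose in MDA-MB-231 and 12 fell and 0 rose in SUM159. LARS2 fell by 0.31 and 0.71. SARS2 had the largest fall in MDA-MB-231 (-0.61) and FARS2 the rise there (0.22). The SARS2 call ended without DMSO replicate 3 or YES1i replicate 3 or 4 of that line, and with a replicate block (adjusted p = 0.0534). SARS2 shares 349 exon bases with MRPS12. The FARS2 call ended without DMSO replicate 1, 3 or 4 or YES1i replicate 2 or 4 of that line. It also ended without the filter (0.172) and in the fit of that line alone (0.0602). In SUM159 FARS2 was called lower, though not under upper quartile scaling (0.0959).

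Of 19 translation factors, 5 fell and 3 rose in MDA-MB-231 and 6 fell and 5 rose in SUM159. These falls were near the shares over all tested genes, 22.1% in MDA-MB-231 and 26.5% in SUM159, where 26.8% and 25.1% rose. SLIRP, which stabilises mitochondrial mRNA, fell by 0.84 in MDA-MB-231 and by 0.56 in SUM159 (adjusted p = 0.0159). The SUM159 call of SLIRP ended under upper quartile scaling (0.0513), in the fit of that line alone (0.0651) and without some single libraries. RMND1 rose by 0.40 and 0.35, and the elongation factor TSFM fell in SUM159 (-0.56). Of the 13 mRNAs encoded by mitochondrial DNA, 1 rose and 1 fell in MDA-MB-231 (MT-CO1 0.61, MT-ND3 -0.47), the latter not without DMSO replicates 1 to 3 or YES1i replicates 1, 3 and 4 left out one at a time. In SUM159 2 rose and 5 fell, where MT-ND6 rose by 0.75 and MT-CO3 fell by 1.11.

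Among 15 regulators, 8 rose and 4 fell in MDA-MB-231 and 4 rose and 4 fell in SUM159. Beside this, 26.8% of all tested genes rose and 22.1% fell in MDA-MB-231, and 25.1% rose and 26.5% fell in SUM159. Median log2 fold changes over the 15 were 0.16 in MDA-MB-231 and -0.05 in SUM159, with 3 higher and 4 lower in both lines. The 4 were the coactivator PPRC1 (-0.46 and -0.50) and NRF1 (-0.37 and -0.40), GABPB1 (-0.44 and -0.58) and YY1 (-0.14 and -0.15), transcription factors known to act on genes of mitochondrial proteins. These 4 were named after their values were seen, and of those that rose only PPARGC1A is given here. The YY1 calls ended without single libraries in both lines and, in SUM159, under RLE scaling (adjusted p = 0.105), upper quartile scaling (0.603) and DESeq2 (0.0997). The coactivator PPARGC1A rose from a low level, from 2.65 ± 0.718 to 22.4 ± 1.41 CPM in MDA-MB-231 and from 2.83 ± 0.128 to 24.7 ± 1.55 CPM in SUM159 (mean ± SD, n = 4).

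Of 81 tested nuclear subunits of the respiratory chain and ATP synthase, 22 fell and 5 rose in MDA-MB-231 (median -0.07) and 43 fell and 5 rose in SUM159 (median -0.25). Of all tested genes, 22.1% fell in MDA-MB-231, near the share in this list, and 26.5% in SUM159, while 26.8% and 25.1% rose. Of 83 tested cytosolic ribosomal proteins, 15 fell and 9 rose in MDA-MB-231 (median -0.04), whereas 63 rose and 3 fell in SUM159 (median 0.40). No difference between these families and the mitoribosomal genes was tested.

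With DMSO, the lines differed in most members, as they did in most genes. MDA-MB-231 was higher than SUM159 in 24 of the 78 genes and lower in 38, where 37.8% of tested genes were higher and 38.7% lower. In all 62 of 78 differed, beside 76.6% of tested genes, a share near the background. The differences ran from -2.06 for MRPS21 to 1.40 for MRPL14 on the log2 scale. MRPS21, a small-subunit protein with 8 named pseudogenes in the table (0.0720% of its count), had 15.8, 14.3, 15.3 and 14.4 CPM in MDA-MB-231 and 67.1, 62.7, 58.0 and 61.8 CPM in SUM159, the widest gap of the family. Other genes lower in MDA-MB-231 were MRPS24 (-1.61), MRPS30 (-1.29), MRPL3 (-1.23), MRPL23 (-1.17), MRPS27 (-1.15), MRPS25 (-1.10) and MRPL30 (-0.96). Genes higher in MDA-MB-231 were, after MRPL14, MRPS10 (1.31), MRPL49 (1.17), MRPL2 (0.96), MRPS6 (0.87), MRPL53 (0.77), MRPL52 (0.62) and MRPL9 (0.54). Some of these genes share exon bases with others of sizeable count. Among such partners the line difference was 1.32 for SYVN1 and -0.33 for FAU (both with MRPL49) and 1.45 for KLC4 (MRPL2). It was 0.40 for CCDC142 (MRPL53), 0.21 for SLC5A3 (MRPS6), -1.86 for PTCD2 (MRPS27) and 0.10 for NR2C2 (MRPS25). The part of the partners was not tested. The summed level was 3578 ± 50.1 CPM in MDA-MB-231 and 3865 ± 47.4 CPM in SUM159.

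The line differences were set beside those of neighbouring genes. The 78 genes lie on 21 chromosomes, and each was compared with the median difference of the 12 to 204 other tested protein-coding genes that start within 5 Mb of its start. Across the 78 genes Pearson's r was 0.43 and Spearman's rho 0.35, beside 0.17 and 0.29 across the other 13712 tested protein-coding genes with a neighbour. Of the 62 called members 38 (61.3%) had the sign of their neighbours, beside 64.2% of the other called genes, so the share was near the background. Of the 6 genes on chromosome 6, 5 were higher in MDA-MB-231, as were the medians of their neighbours, and MRPL18 was lower (-0.60). MRPL14 had a difference of 1.40 beside a neighbour median of 0.92, MRPS10 1.31 beside 0.94, MRPL2 0.96 beside 0.92, MRPS18B 0.49 beside 0.68 and MRPS18A 0.32 beside 0.92. MRPS30 and MRPS27 on chromosome 5 and MRPL3 on chromosome 3 were lower among lower neighbours, at -0.61, -0.56 and -0.68. MRPS21 and MRPS24 stood apart from theirs, at 0.18 and 0.08. The YES1i changes and those of the neighbours had an r of -0.06 in MDA-MB-231 and 0.02 in SUM159.

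**Figure D5:**
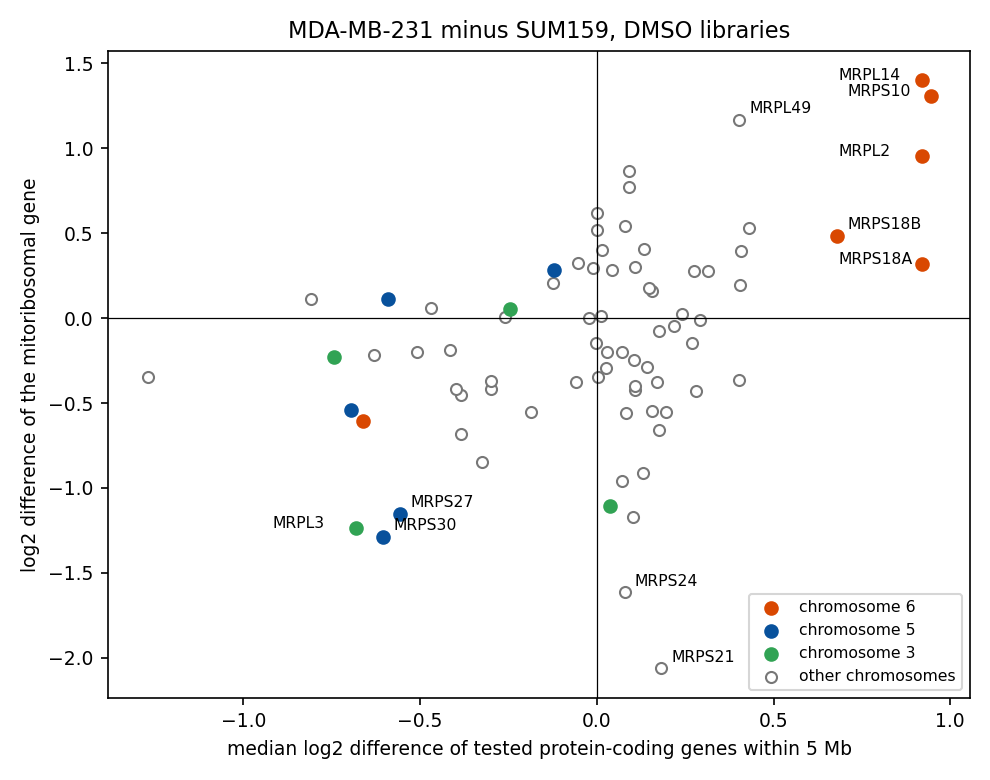
Log2 difference between MDA-MB-231 and SUM159 with DMSO for each of the 78 genes (vertical axis) against the median difference of the other tested protein-coding genes that start within 5 Mb (horizontal axis), with genes of chromosomes 3, 5 and 6 coloured. MRPL14, MRPS10 and MRPL2 lie at the upper right, MRPS30, MRPS27 and MRPL3 at the lower left, and MRPS21 far below neighbours that are near 0.

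Levels between genes can be compared only per length, here as the mean CPM per kb of annotated gene over the 4 groups. The highest were MRPL14 at 100, MRPS34 at 73.6, MRPS10 at 53.9, MRPL41 at 51.0 and MRPL51 at 46.5 CPM per kb. The lowest were MRPL38 at 0.654, MRPS24 at 0.745, MRPL46 at 1.14, MRPL53 at 1.45 and MRPS28 at 2.80. MRPL14 ranked first through MDA-MB-231, with 170 CPM per kb with DMSO there and 64.4 in SUM159, where MRPS34 had 104. Most of the products occur as a single copy in a finished ribosome, whereas the transcript levels per length ranged from 0.654 to 100 CPM per kb.

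Many members overlap other genes. By the annotation, 41 of the 78 genes share exon bases with another gene, and for 26 that other gene reached at least 10% of the member's own total. Over the 52 without such a partner, 30 fell and 2 rose in MDA-MB-231 (median -0.24) and 37 fell and 3 rose in SUM159 (median -0.32). Of all tested genes, 22.1% fell and 26.8% rose in MDA-MB-231, and 26.5% fell and 25.1% rose in SUM159. The 52 still hold MRPL12, MRPS24 and MRPS28, whose same-strand partners had few counts, so they are not free of overlap. MRPL12, MRPL33, MRPL38, MRPL53, MRPS17, MRPS24 and MRPS28 share at least 20% of their exon bases with a gene on the same strand, a limit chosen after the values were seen. Of these 7, 5 were among the 7 lowest per length. MRPL38 shares 37.5% and MRPL53 45.2%, whereas MRPL12 shares 68.2% and ranked 14. Whether reads in shared bases were dropped is not given in the sources used here. Pseudogenes named after a member exist in the table for 34 members, 75 in all, and their summed count exceeded 10% of the member's own in 1, MRPS31 (15.3%).

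Promoter sequences were matched by symbol for 69 of the 78 genes, each from 250 bases before to 50 after a transcription start in RefSeq (GRCh38.p14). Both strands were searched for 6 short motifs, and a match is a description of the letters, not a bound site. CCGGAAG, the core bound by ETS factors such as GABP, was found in 42.0% of the mitoribosomal promoters and in 18.4% of those of tested protein-coding genes. AAGATGGCG, a YY1 motif, was found in 18.8% and 3.73%. The motif of NRF1 was found in 11.6% and 11.2%, and GGGGCGGG, an SP1 motif, in 39.1% and 38.3%. CACGTG, the E-box bound by MYC, was found in 10.1% and 9.85%, and TATAAA in 2.9% and 5.9%. Of 28 matched genes called lower in both lines, 35.7% had the ETS core and 10.7% the YY1 motif, and of the 41 others 46.3% and 24.4%. No difference between these shares was tested.

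The sequences of 5 promoters show these motifs before the annotated gene start. That start differs from the RefSeq start used in the search, from which the NRF1 motif of MRPL45 lies at -189. Each stretch is the 100 bases directly before the annotated start of the gene, 5′ to 3′ on the strand of the gene, with matches to the NRF1, ETS or YY1 motif in capitals. The 5 were chosen after the matches and values were seen, to show 1 kind of motif each in genes that changed. MRPL3 and MRPL47, called lower in both lines, hold the ETS core near the start, MRPL57, also lower in both, and MRPL45, higher in SUM159, hold the NRF1 motif, and MRPL52, called lower in MDA-MB-231, holds the YY1 motif at 2 places and the ETS core outside the stretch.
MRPL3, chr3:131502984-131503083, minus strand: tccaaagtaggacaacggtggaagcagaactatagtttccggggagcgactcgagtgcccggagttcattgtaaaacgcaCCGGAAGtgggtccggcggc
MRPL47, chr3:179604655-179604754, minus strand: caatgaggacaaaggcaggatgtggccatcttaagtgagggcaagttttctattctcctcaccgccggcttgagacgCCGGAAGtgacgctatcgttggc
MRPL57, chr13:21176545-21176644, plus strand: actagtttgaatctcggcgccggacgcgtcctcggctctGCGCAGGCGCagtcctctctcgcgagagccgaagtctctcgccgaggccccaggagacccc
MRPL45, chr17:38296923-38297022, plus strand: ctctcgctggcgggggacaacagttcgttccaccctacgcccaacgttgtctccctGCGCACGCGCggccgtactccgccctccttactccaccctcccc
MRPL52, chr14:22829779-22829878, plus strand: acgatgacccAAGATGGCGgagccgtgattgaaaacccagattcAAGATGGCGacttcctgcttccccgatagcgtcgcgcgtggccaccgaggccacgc
The log2 fold changes of MRPL57 were -0.37 in MDA-MB-231 and -0.33 in SUM159 and those of MRPL45 -0.03 and 0.52, and both hold the NRF1 motif. Those of MRPL52 were -0.32 (adjusted p = 0.0401, a call that ended without any 1 of 7 single libraries) and -0.29 (adjusted p = 0.0661).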

How the data were processed

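RNA-seq of 16 libraries (4 groups of 4) was analysed from a table of raw read counts per gene that the authors deposited. Per the submitters' processing notes, HISAT2 2.0.5, featureCounts 1.5.0-p3 and the hg38 build were used, and gene starts and ends in the file equal those of GENCODE 29 for 58735 of 58735 genes. The sources used here do not give the annotation release, the use of strand or the treatment of shared or repeated alignments.

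Samples were grouped by the labels. Genes were kept by edgeR's filterByExpr (17647 of 58735), scaled by TMM and tested in 1 fit of all libraries with edgeR 4.0.16 (R 4.3.3) by the robust quasi-likelihood test, with Benjamini-Hochberg adjustment over all tested genes at 0.05. Contrasts were YES1i against DMSO in each line, the difference of these changes (MDA-MB-231 minus SUM159) and the lines with DMSO. Standard errors were derived from the fold change and its F value. The code was tested on simulated data. Total counts per library were 15876171 to 36261542, so that 3 counts, the level a count of 0 allows, correspond to 0.0827 to 0.189 CPM. Such limits cover counting error only.

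Named genes were the called members with the 8 largest changes each way per contrast, those called in opposite directions, the 6 largest differences between lines, the 5 highest and 5 lowest per length and 10 members chosen for their role. From the other lists came all ribosomal genes and the largest called change each way. The members and lists were chosen with earlier results of these data known, and MRPL57, MRPL58, MRPS31, MRPL33, GABPB1, LARS2, NRF1, PPRC1, TFAM, TFB1M and YY1 were named after their values were seen. Alternatives were RLE and upper quartile scaling, no filter, a limit of 0.01, a replicate block, a fit of each line alone, DESeq2 1.42.0, each library left out, and, added after seeing the data, both SUM159 libraries that stand apart left out. Motifs were searched in RefSeq promoters (GRCh38.p14). Protein sequences were not used here.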

Additional observations from a re-analysis of the deposited data

Results flagged for a closer look

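Of the 44 members named by rule, 176 groups of 4 libraries were looked at for a library far from the other 3, and 11 were found by Dixon's test at 95%. Chance gives about 5% of such groups. In SUM159 with DMSO, MRPL11 was low in replicate 2 (40.1 CPM, the others 46.7 to 47.7), MRPL53 was low in replicate 3 (1.28, the others 1.35 to 1.36), MRPL23 was high in replicate 4 (54.6, the others 36.9 to 38.9) and MRPS7 was high in replicate 2 (64.1, the others 54.7 to 56.3). In SUM159 with YES1i, replicate 2 was high for MRPL16 (37.1, the others 30.8 to 31.5) and MRPL9 (28.5, the others 23.5 to 23.8), and replicate 1 was low for MRPL44 (20.4, the others 24.0 to 24.4). In MDA-MB-231 with DMSO, MRPS17 was high in replicate 3 (4.94 CPM, the others 4.07 to 4.10) and MRPS18A was low in replicate 1 (17.1, the others 20.6 to 21.0). In MDA-MB-231 with YES1i, MRPL35 was low in replicate 1 (36.7, the others 39.6 to 40.1) and MRPL52 was high in replicate 2 (45.5, the others 39.4 to 40.3).

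For 13 named members the YES1i change differed between the lines by edgeR's interaction test at an adjusted p under 0.05. As log2 change in MDA-MB-231 minus that in SUM159, the positive differences were MRPS24 1.11, MRPS6 1.08, MRPL41 0.61, MRPS28 0.61, MRPL36 0.49, MRPL13 0.45, MRPL15 0.44 and MRPL28 0.43. The negative ones were MRPL45 -0.55, MRPS33 -0.46, MRPL37 -0.44, MRPS2 -0.33 and MRPS9 -0.27. SLC5A3, which shares exon bases with MRPS6, had a difference of 0.95, and TMEM8A, which shares them with MRPL28, of 0.91. Their part in these differences was not tested.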

How the results depend on the processing

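The counts of members lower with YES1i stayed within 1.5 times in every alternative. Shares over all tested genes given with earlier counts belong to the TMM fit of all 16 libraries at 0.05, not to these alternatives. Other counts moved further. At an adjusted p under 0.01, 2 members rose in MDA-MB-231 and 12 differences between lines were positive. In SUM159, 6 rose under RLE scaling, 6 under upper quartile scaling, 6 by DESeq2 and 6 without both SUM159 libraries that stand apart, which also gave 7 that rose in MDA-MB-231. Negative differences between lines numbered 9 under RLE scaling, 12 under upper quartile scaling (with 9 positive), 9 by DESeq2 and 8 without those libraries. The cause was not tested. With single libraries left out, MDA-MB-231 gave 2 to 6 higher and 35 to 46 lower, SUM159 3 to 5 and 47 to 55, the lines with DMSO 20 to 25 and 34 to 40, and their difference in response 14 to 20 and 4 to 6. The extremes of 2 and 5 higher came without MDA-MB-231 DMSO replicate 1 and SUM159 DMSO replicate 1. With a replicate block 3 rose and 39 fell in MDA-MB-231, 3 and 51 in SUM159, 19 and 5 for the difference and 25 and 39 between lines. Same-numbered libraries did not deviate together (r from -0.107 to 0.012 over 8 pairs, 0 of 16 best with their own number). The labels do not say what else they share. Of 3331 values of 140 named results under the alternatives, 3146 kept their side of the threshold, 158 lost it, 27 gained it and 0 changed sign. With the block MRPL52, MRPS17 and MRPS33 missed the threshold in MDA-MB-231 (adjusted p = 0.0682, 0.0507 and 0.0513). Low counts limit MRPS24, MRPS28, MRPL38 and MRPL53.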
